A study of Mus musculus with 2 samples.

Results

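Iron uptake, storage and iron regulatory protein (IRP) control were described for 10 genes in G1E cells, an immortalised mouse erythroid progenitor line labelled Gata1-. The members were chosen by name and matched by gene identifier: Tfrc, Tfr2, Steap3, Slc11a2, Fth1, Ftl1, Slc40a1, Ireb2, Aco1 and Fbxl5. All 10 were found among the 43346 genes of each deposited gene table. The libraries, total RNA longer than 200 nucleotides, came from 2 biological replicates of the line (strain C57BL/6J, male, age given as 0 day postnatal), each prepared from 1 ng of RNA with spike-ins. The labels give 1 group and no other genotype, treatment or time. No group could be tested, so the text gives levels and a comparison of 1 library with the other.

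Erythroid precursors take up more iron than almost any other cell because each haem molecule holds an iron atom. Iron bound to transferrin enters through the transferrin receptor, is reduced in the endosome by STEAP3 and crosses the endosomal membrane through the transporter encoded by Slc11a2. Iron that is not used is stored in ferritin, a shell of heavy and light chains, or leaves through ferroportin, encoded by Slc40a1. When iron is scarce, IRP1 (encoded by Aco1) and IRP2 (encoded by Ireb2) bind iron-responsive elements (IREs), which are short hairpins in the untranslated regions of mRNAs. Binding in a 5′ untranslated region blocks translation, and binding in a 3′ untranslated region protects the mRNA from decay. When iron is plentiful IRP1 carries an iron-sulfur cluster and acts as an aconitase, and FBXL5 sends IRP2 to the proteasome.

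The IREs of the members are shown first because IRPs bind mRNAs through them. GENCODE M21 transcripts (GRCm38) were searched for a C, any 5 bases, CAGTG and any base, with at most 1 mismatch in the 5 base pairs of the upper stem and at least 3 of 5 pairs below the bulged C, on the transcript strand only. Of the 10 members, 4 held a match, and 715 of 21901 protein-coding genes (3.265%) held one anywhere in a transcript. G-U pairs, written G-T in these sequences, counted as pairs under every rule. A match is a description of letters, not a tested site. Capitals mark the bulged C and the 6 loop bases, sequences run 5′ to 3′, and each is written on the strand of its gene.
Tfrc 3′ element 1, chr16:32631220-32631246, plus strand: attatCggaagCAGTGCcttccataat
Tfrc 3′ element 2, chr16:32631599-32631625, plus strand: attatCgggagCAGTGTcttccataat
Tfrc 3′ element 3, chr16:32631664-32631690, plus strand: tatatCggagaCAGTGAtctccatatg
Tfrc 3′ element 4, chr16:32631711-32631737, plus strand: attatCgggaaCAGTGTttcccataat
Fth1 5′ element, chr19:9982733-9982759, plus strand: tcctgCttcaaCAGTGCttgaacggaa
Ftl1 5′ element, chr7:45459780-45459806, minus strand: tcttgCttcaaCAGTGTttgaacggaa
Slc40a1 5′ element, chr1:45925466-45925492, minus strand: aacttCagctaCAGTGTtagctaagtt

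The elements of Tfrc lay in its 3′ untranslated region, and those of Fth1, Ftl1 and Slc40a1 in 5′ untranslated regions. All 7 had 5 of 5 upper pairs. The ferritin elements were identical at 25 of 27 bases, whereas the Slc40a1 element shared 13 of 27 with each ferritin element. Within Tfrc the first and second elements shared 25 of 27 bases, and the third shared 17 or 18 with the others. The 4 Tfrc elements spanned 518 nucleotides, with the last 3 starting 65 and 47 nucleotides apart.

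Slc11a2 had no match under this rule. An element was found in its 3′ untranslated region by a rule added after the data were seen, which allowed 1 unpaired base on the 3′ strand of the upper stem and no mismatch. That rule matched 273 of 21901 protein-coding genes (1.247%). Tfr2, Steap3, Ireb2, Aco1 and Fbxl5 had no match under either rule.
Slc11a2 3′ element, chr15:100395153-100395180, minus strand: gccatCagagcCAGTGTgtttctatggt

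Library composition bears on every level below. Replicate 1 held 31649878 estimated counts and replicate 2 held 40597614, and nuclear protein-coding genes took 26.9% and 18.9% of them. The mitochondrial ribosomal RNAs took 14.6% and 35.4%, and Gm42418, a gene known to overlap a ribosomal RNA repeat, 52.6% and 40.3%. The part of these shifts in the ratios below was not tested. Values of TPM, a level scaled for transcript length and library total, were 1.548 times higher in replicate 1 for the median detected gene, where detected means at least 1 TPM in both libraries. Gata1 was listed at 798 and 649 counts in the libraries labelled Gata1-. With no Gata1+ library and no exon-level values used here, this count does not check the label, and whether the allele leaves a transcript was not tested. All 7 erythroid progenitor markers were detected, with Kit, the stem cell factor receptor, at 175 and 114.55 TPM. Markers of maturing erythroid cells, 6 genes here, were higher in replicate 2, and their summed TPM was 149.92 in replicate 1 and 1485.37 in replicate 2. In bulk RNA, a larger share of such cells and more such RNA per cell cannot be told apart.

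All 10 members were detected in both libraries, and their mean levels spanned from 4.55 TPM for Steap3 to 517 TPM for Ftl1. By mean TPM the order was Ftl1, Fth1, Tfrc, Aco1, Tfr2, Fbxl5, Slc11a2, Ireb2, Slc40a1 and Steap3. The ranges over the libraries overlapped for Ftl1 and Fth1, for Tfr2, Fbxl5 and Slc11a2, and for Ireb2 and Slc40a1, and were apart for all other neighbours in this order. The first 4 places and the last were the same in both libraries, while the places between changed.

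**Figure D1:**
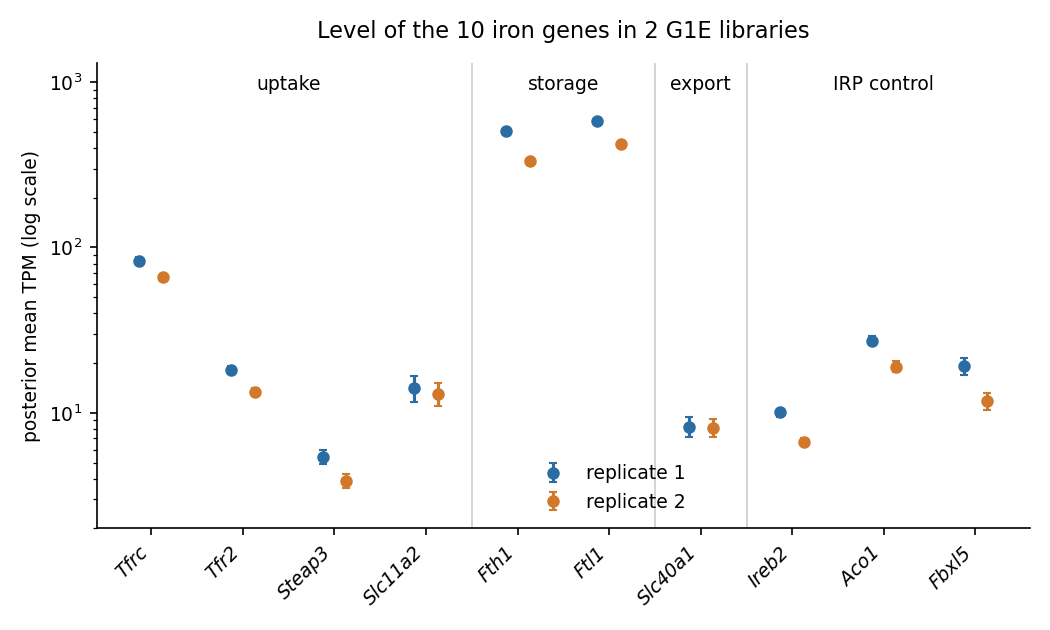
Posterior mean TPM (log axis) of the 10 iron genes in each G1E library, grouped by role, with the deposited credibility interval as bars. The ferritin genes lie above all others and Steap3 lies lowest. Replicate 1 lies above replicate 2 for every gene, by the least for Slc11a2 and Slc40a1.

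Among the uptake genes, Tfrc, the main transferrin receptor, was the most abundant. It had 5366 counts in replicate 1 and 5529 in replicate 2, or 84.87 and 67.01 TPM (75.9 ± 12.6, SD, n = 2), and ranked 343rd and 263rd of 21461 nuclear protein-coding genes. Tfr2, a second transferrin receptor that also acts as an iron sensor, had 1122 and 1128 counts and 18.81 and 13.69 TPM (16.3 ± 3.62, SD, n = 2). On the TPM scale replicate 1 was the higher library for both receptors. Within a library, Tfrc was at 4.51 times the TPM of Tfr2 in replicate 1 and 4.89 times in replicate 2. The log2 ratio of their TPM, with 1 TPM added to each, was 2.12 and 2.21 (2.16 ± 0.0672, SD, n = 2).

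The downstream uptake genes were lower. Steap3, the endosomal ferrireductase, had 565 and 563 counts and 5.28 and 3.82 TPM (4.55 ± 1.03, SD, n = 2). Slc11a2, the divalent metal transporter that moves iron out of the endosome, had 647 and 720 counts and 13.76 and 12.76 TPM (13.3 ± 0.707, SD, n = 2). On the TPM scale, where the median detected gene was higher in replicate 1, replicate 1 was the higher library for both. The deposited credibility intervals, which are set around a posterior mean TPM, overlapped for Slc11a2 (11.6 to 16.8 and 11.0 to 15.2 TPM) and not for Steap3 (4.92 to 5.98 and 3.54 to 4.27 TPM).

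Storage was the most abundant role. Ftl1, the ferritin light chain, had 9585 and 9734 estimated counts and 603.46 and 431.19 TPM (517 ± 122, SD, n = 2). Fth1, the ferritin heavy chain with ferroxidase activity, had 8419 and 7425 estimated counts and 527.54 and 340.12 TPM (434 ± 133, SD, n = 2). Replicate 1 was the higher library for both on the TPM scale, and the light chain was the higher gene in both libraries. The TPM of Ftl1 was 1.14 and 1.27 times that of Fth1. With 1 TPM added to each, the log2 ratio of Fth1 to Ftl1 was -0.19 and -0.34 (-0.27 ± 0.104, SD, n = 2). These genes ranked between 21st and 32nd of 21461 nuclear protein-coding genes.

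Reads of Ftl1 could be divided with near-identical copies, which adds an uncertainty to its level. Its deposited credibility intervals were 571 to 596 and 411 to 429 TPM, around posterior means of 583.2 and 419.94 TPM. In BLAST, 12 genes were at least 85% identical to an Ftl1 transcript over 200 nucleotides or more. They include Cars, which encodes cysteinyl-tRNA synthetase and is no ferritin copy, with a match of 216 nucleotides and 318 and 270 counts. Gm15580, a processed pseudogene also among the 12, lies within the bounds of Cars. Whether it gives the match of Cars was not tested. Ftl1-ps1 was 99.56% identical over 910 nucleotides and held 163.09 and 137.78 estimated counts. Gm15590 held 2.35 and 2.47. Fth1 had 1 such copy, Gm6977, with 2.02 counts in each library, and the other 8 members had none. The counts assigned to these ferritin copies were small beside those of Ftl1 and Fth1.

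Slc40a1, encoding ferroportin, the only known cellular iron exporter, had 500 and 648 counts. Its TPM was 7.45 and 7.56 (7.51 ± 0.0778, SD, n = 2), so that it alone among the members was listed slightly higher in replicate 2 on this scale. Its posterior mean TPM was 8.27 and 8.14, in the other order, and the credibility intervals overlapped (7.11 to 9.49 and 7.11 to 9.24 TPM).

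Among the control genes, Aco1 had 2026 and 1895 counts and 27.79 and 19.27 TPM (23.5 ± 6.02, SD, n = 2). Ireb2 had 1257 and 1145 counts and 10.41 and 6.85 TPM (8.63 ± 2.52, SD, n = 2). The TPM of Aco1 was 2.67 and 2.81 times that of Ireb2. With 1 TPM added to each, the log2 ratio of Ireb2 to Aco1 was -1.34 and -1.37 (-1.35 ± 0.0236, SD, n = 2). The ratio of the 2 genes was close in both libraries, whereas each gene alone was higher in replicate 1 on the TPM scale. Fbxl5, the iron-sensing subunit of the ligase that degrades IRP2, had 757 and 708 counts and 19.46 and 11.86 TPM (15.7 ± 5.37, SD, n = 2). It lay above Ireb2 in both libraries.

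The libraries were then compared after TMM scaling, which centres a trimmed mean of the log ratios and assumes that most genes do not differ. A call needed an adjusted p (Benjamini-Hochberg) below 0.05 and a 2-fold ratio. No member was called, while 7.30% of 11902 tested genes were (869 genes), 5.08% higher in replicate 2 and 2.22% higher in replicate 1. With the exact binomial test and no limit on the ratio, 5 members were higher in replicate 2, where 17.2% of tested genes were, and 0 were higher in replicate 1, where 15.2% were. No member passed edgeR's negative binomial exact test, which adds a spread between replicates. That spread was estimated from these same 2 libraries, so it already holds the differences under test. Its outcome therefore decides nothing about the members. The members' median ratio was 1.12 and that of all tested genes 1.00. Of the 10 members, 9 had ratios above 1, as did 6000 of the 11902 tested genes. But when total counts set the scale, 8 of those 9 members fell below 1 and only Slc40a1 stayed above. The median of all genes was then -0.52 on the log2 scale. The test covers counting error in a pair of libraries, so its p-values do not measure the spread of the line.

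Slc40a1 had the highest ratio, 1.45 (exact 95% interval 1.29 to 1.64, adjusted p = 6.07e-09 by the exact binomial test). Slc11a2 followed at 1.25 (1.12 to 1.39, adjusted p = 0.000373), then Tfrc at 1.15 (1.11 to 1.20, adjusted p = 1.64e-12), Ftl1 at 1.14 (1.11 to 1.17, adjusted p = 9.06e-18) and Tfr2 at 1.13 (1.04 to 1.23, adjusted p = 0.0185). These 5 are the exporter, a storage chain and 3 of the 4 uptake genes. Each ratio is of a whole gene, and its single transcripts differed. Tfrc-201, the full coding transcript, was at 0.953 (0.907 to 1.00), beside 2.31 for the shorter Tfrc-202 and 1.36 for the retained-intron Tfrc-204. Slc40a1-201 was at 1.25, and its retained-intron transcripts Slc40a1-202 and Slc40a1-208 at 4.48 and 2.34. Slc11a2-201 and Slc11a2-205 were at 1.12 and 1.22, and the partial Slc11a2-203 at 14.3. Ftl1-201 was at 1.25, while an Ftl1 model of 604 nucleotides was at 0.928 and one of 710 nucleotides had 496 and 0 counts. How far the ratio of Ftl1-201 reflects the division of reads among these models was not tested. Steap3 at 1.12 had an interval that reached 1 (0.992 to 1.26). Aco1 and Fbxl5 at 1.05, Ireb2 at 1.02 and Fth1 at 0.989 also had intervals that held 1, so none of the 3 control genes passed.

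Macrophages, which recycle iron, also express Slc40a1, and 4 of their 8 markers were higher in replicate 2. C1qa had 0 and 27 counts, Vcam1 0 and 67, Spic 0 and 15, and Adgre1 1 and 15. Cd68, with 17 and 1, was higher in replicate 1, and Csf1r, Cd5l and Marco were at 0 in both. None of the 8 was detected, and their summed TPM was 0.75 and 2.21. The part of such cells, and of the maturing erythroid genes that were higher in replicate 2, in the ratio of Slc40a1 was not tested. Markers of hepatocytes, which express Tfr2, were at 0 in both libraries for 5 of 6 genes, with Apoa1 at 2 and 0 counts. Of 4 markers of enterocytes, which express Slc11a2, 3 were at 0, with Vil1 at 4 and 7 counts.

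**Figure D2:**
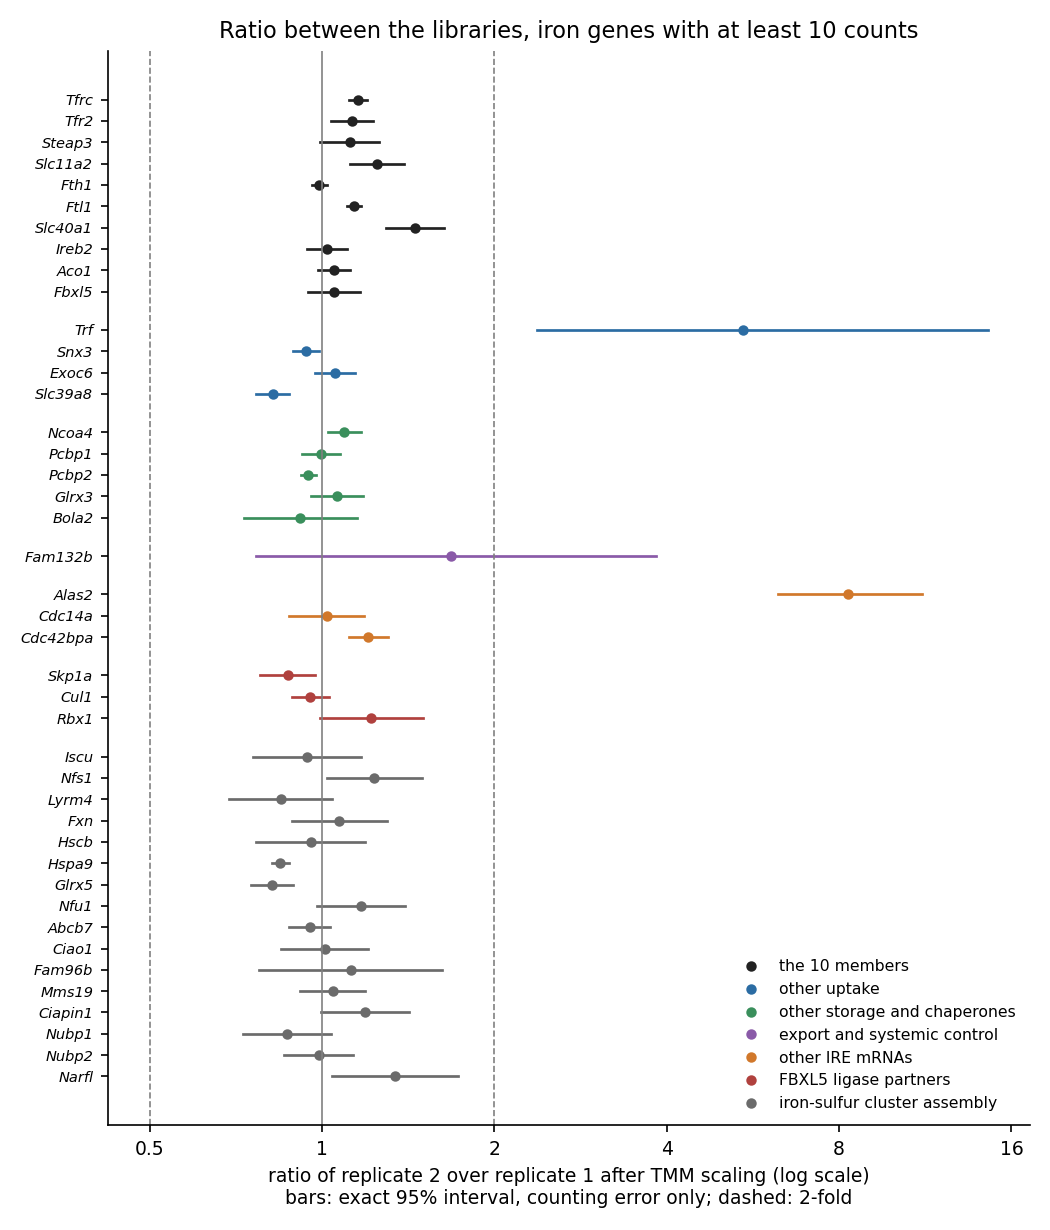
Ratio of replicate 2 over replicate 1 after TMM scaling (log axis) for the 10 members and the 32 other iron genes with at least 10 counts, with exact 95% intervals for counting error and dashed lines at 2-fold. All 10 members lie inside the 2-fold lines, from 0.989 for Fth1 to 1.45 for Slc40a1. Trf and Alas2 lie to the right of them.

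Slc11a2 is transcribed from alternative first exons and ends in alternative 3′ exons, of which only 1 holds the IRE. Its 8 annotated transcripts were estimated from the same reads, and 4 of them (Slc11a2-202, Slc11a2-204, Slc11a2-206 and Slc11a2-208) were at 0 counts in both libraries. Slc11a2-205, the model of 4415 nucleotides with the IRE, had 319.65 and 347.04 estimated counts. Slc11a2-201, the full-length model of 3025 nucleotides without it, had 293.21 and 293.73. Both forms were present in each library at similar counts. Taken over these 2 models alone, the IRE form was 42.4% and 44.4% of the TPM (43.4% ± 1.42, SD, n = 2) and 52.2% and 54.2% of the counts.

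Over all 8 transcripts the share with the IRE depended on short, partial models. It was 25.47% and 21.55% of the TPM (23.5% ± 2.77, SD, n = 2) and 49.4% and 48.2% of the counts (48.8% ± 0.852, SD, n = 2). Slc11a2-207, 389 nucleotides long and annotated without its 3′ end, had only 30.54 and 28.71 counts but 37.98% and 28.83% of the TPM. Slc11a2-203, 718 nucleotides long and annotated without its 5′ end, had 3.60 and 50.51 counts and 2.04% and 22.65% of the TPM. Neither of these models reaches the IRE. Slc11a2-207 starts 1159 nucleotides upstream of Slc11a2-201 and was the only model with counts among those that start upstream of it.

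Most of the Slc40a1 estimate lay on transcripts that hold the 5′ IRE. The share was 95.47% and 87.03% of the TPM (91.3% ± 5.97, SD, n = 2) and 99.6% and 98.5% of the counts. The coding models without the IRE, Slc40a1-203, Slc40a1-205 and Slc40a1-206, are 370 to 451 nucleotides long and lack 3′ ends. Reads from the rest of such an mRNA could be assigned only to other models. These shares therefore cannot tell how much Slc40a1 mRNA lacks the IRE. Slc40a1-201, the coding model of 3370 nucleotides, had 431.48 and 480.91 counts and 83.83% and 66.60% of the TPM. The remaining transcripts with the IRE were annotated as retained introns. Of these, Slc40a1-208 had 57.55 and 121.13 counts and Slc40a1-202 had 8.86 and 36.30. In estimated counts replicate 2 was higher for all 3, while in TPM Slc40a1-201 was higher in replicate 1, at 6.25 and 5.04.

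Slc40a1 is also known to have an upstream promoter whose mRNA lacks the IRE and is used in duodenum and erythroid precursors. The models Slc40a1-203, Slc40a1-205 and Slc40a1-206 start 937 nucleotides upstream of Slc40a1-201, are annotated without their 3′ ends and have no match. Together they held 2.11 and 5.23 estimated counts, or 4.53% and 7.76% of the TPM. In replicate 1 this sum was below the 3 counts that a count of 0 allows, and in replicate 2 it was above that. Slc40a1-202, the retained-intron model with 8.86 and 36.30 counts, also starts upstream, by 941 nucleotides, and holds the IRE. Of these 4 upstream models it had the most counts, but it is also much the longest, at 2792 nucleotides. Its TPM was 0.16 and 0.46, below the 0.34 and 0.58 of the other 3 together. Whether its reads came from RNA that starts upstream was not tested. Slc40a1-204 had 0 and 4.43 counts, and Slc40a1-207 had 0 in both.

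**Figure D3:**
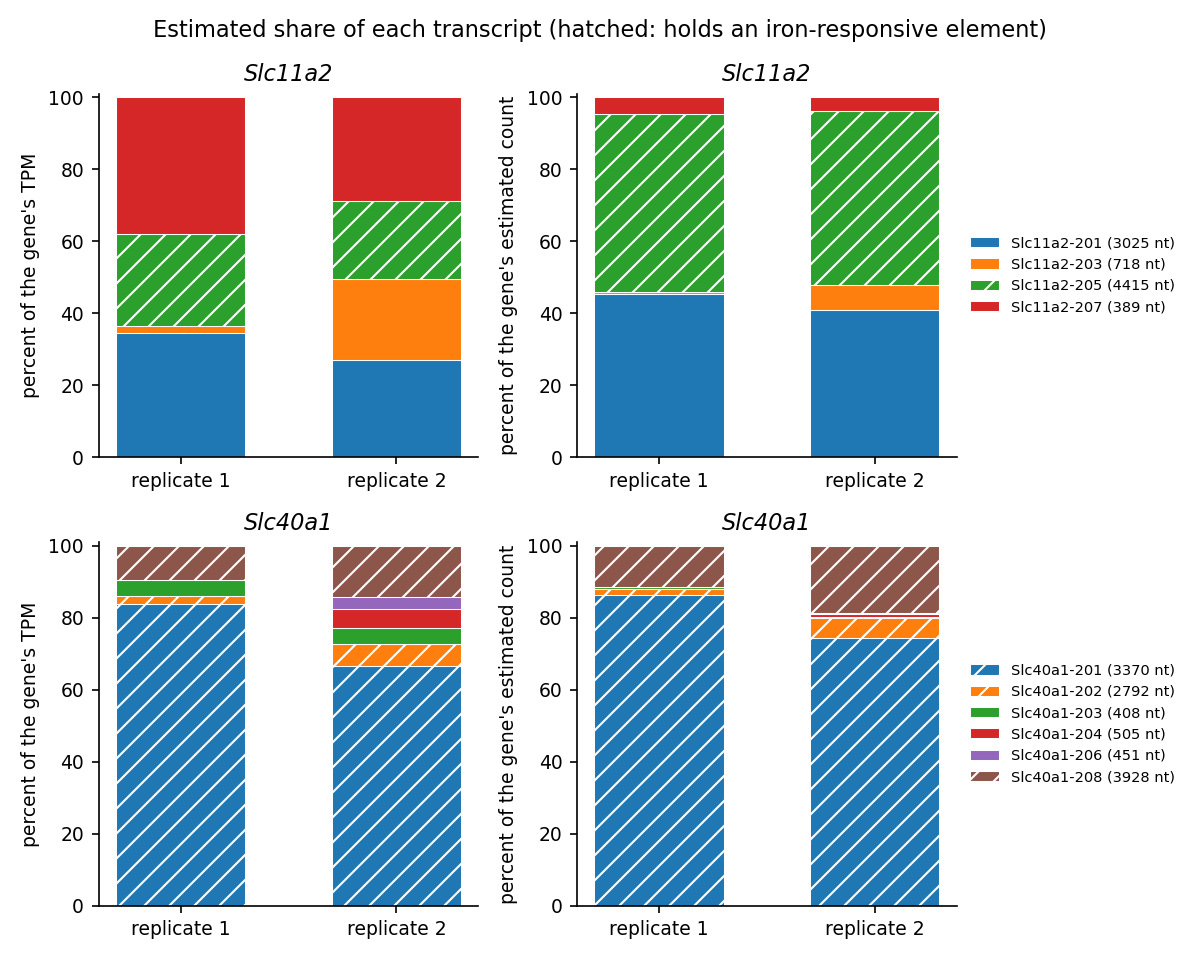
Share of each annotated transcript of Slc11a2 (top) and Slc40a1 (bottom) in each library, as percent of the gene's TPM (left) and of its estimated count (right), with transcripts that hold an IRE hatched (for Slc11a2 by the rule that allows 1 unpaired base). Short models such as Slc11a2-207 take a large share of TPM and a small share of counts, and the hatched share of Slc40a1 is above 87% in every bar.

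In the other members, the IRE share followed the 3′ or 5′ end of the models. Tfrc transcripts with the 4 elements, Tfrc-201 and the retained-intron model Tfrc-204, took 61.78% and 55.48% of the TPM and 88.9% and 82.3% of the counts. Tfrc-201, the full coding model of 4890 nucleotides, had 3421 and 2908 counts. Tfrc-202, a coding model of 1860 nucleotides that ends before the elements, had 368.41 and 757.56 counts. Tfrc-205, a retained-intron model of 571 nucleotides without the elements, had 181.43 and 156.83 counts but 22.03% and 17.79% of the TPM. Replicate 2 was lower for Tfrc-201 and Tfrc-205 and higher for Tfrc-202 and Tfrc-204 in estimated counts. Fth1-201, the only deposited Fth1 transcript, holds its element. Ftl1-201 holds the Ftl1 element and took 68.30% and 78.03% of the TPM. A further Ftl1 model of 604 nucleotides took 24.01% and 20.49%, and a model of 710 nucleotides took 6.5% and 0%. These have no model in the later annotation and were not searched.

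Ireb2 and Tfr2 each had 1 transcript. Steap3-203 took 100% and 99.03% of the TPM of its gene, and Aco1-201 took 91.4% and 88.7%, with Aco1-202 at 5.37% and 10.66%. Fbxl5 was spread over more models than any other member. Its most counted model, Fbxl5-209, had 246.44 and 247.11 counts and 24.84% and 29.61% of the TPM. The short model Fbxl5-207, 530 nucleotides in the deposited tables, had 56.67 and 32.70 counts but 32.97% and 23.08% of the TPM. Fbxl5-202 and the retained-intron models Fbxl5-206, Fbxl5-208 and Fbxl5-210 each took between 6.24% and 10.19%. Fbxl5-201 had 121.40 and 27.77 counts and Fbxl5-204 had 0 and 86.65, but the credibility intervals of the libraries overlapped for both models.

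The same exact binomial test was run on all transcripts, an analysis added after these values were seen. Of the 31 member transcripts tested, 9 were called (29.0%), near the 30.2% of all 31013 transcripts. Of the members' transcripts 6 were higher in replicate 2, as were 15.6% of all, and 3 were higher in replicate 1, as were 14.6%. Called transcripts of the members included Tfrc-202 (2.31 times higher in replicate 2), Slc11a2-203, Slc40a1-202 and Slc40a1-208 (2.34 times), Fbxl5-201 and Fbxl5-204. The rest were Aco1-202, higher in replicate 2, and the Ftl1 models of 710 and 943 nucleotides, both higher in replicate 1. The test ignores the error of dividing reads among overlapping transcripts. For 5 of the 9 called, among them Slc40a1-208, Fbxl5-201 and Fbxl5-204, the deposited credibility intervals of TPM overlapped between the libraries. Those intervals are not TMM-scaled, and TPM was 1.548 times higher in replicate 1 for the median detected gene. An overlap on that scale therefore does not bear directly on a call. The median ratio of all tested retained-intron models was 1.07, against 1.00 for all transcripts.

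The genes around the members were described in 6 lists, 50 genes in all, of which 30 were detected and 15 were at 0 in both libraries. After TMM scaling 2 of the 32 tested were called, both higher in replicate 2. Trf, which encodes transferrin, had 7 and 34 counts, a ratio of 5.44 (2.38 to 14.6). Alas2, the erythroid enzyme that starts haem synthesis, had 56 and 414 counts, a ratio of 8.29 (6.26 to 11.2), and is also a marker in the maturing erythroid list. Trf was at 0.33 and 0.99 TPM, below the level called detected. It did not pass the negative binomial test, whose spread already holds the difference under test.

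Of 12 other uptake genes, 3 were detected. Snx3, which recycles the transferrin receptor, was the highest at 129.08 and 77.45 TPM, and 6 genes, among them Hfe, Steap1, Steap2 and Steap4, were at 0 in both libraries. With the 3 other Steap genes at 0, Steap3 was the only detected gene of its family. Of 6 other storage and chaperone genes, 5 were detected. Pcbp2, which delivers iron to ferritin, was the highest at 148.78 and 90.84 TPM, and Ftmt, mitochondrial ferritin, was at 0 in both.

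None of the 9 export and systemic control genes was detected, and 7 were at 0 in both libraries, including Hamp, the gene of hepcidin. The highest was Fam132b, which encodes erythroferrone, at 0.26 and 0.28 TPM (12 and 18 counts). Of the ferroxidases that work with ferroportin, Heph was at 0 in both libraries and Cp at 0 and 7 counts.

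Of 4 other mRNAs described as holding IREs, 3 were detected, and Epas1 was at 0 in both. Cdc42bpa, which encodes a protein kinase, was the highest by mean at 10.46 and 12.06 TPM. Neither Cdc42bpa nor Cdc14a had a match under either rule in the transcripts searched. Epas1 had a match only when 1 unpaired base was allowed. The element of Alas2 lay in its 5′ untranslated region and is shown for comparison with the ferritin elements.
Alas2 5′ element, chrX:150547459-150547485, plus strand: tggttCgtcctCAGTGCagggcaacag

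All 3 genes listed as partners of FBXL5 in its ligase were detected. Cul1, the scaffold, was the highest at 42.39 and 24.85 TPM, and Rbx1, the RING subunit, the lowest at 5.55 and 4.40 TPM. All 16 genes of iron-sulfur cluster assembly, which supplies the cluster of IRP1, were detected and none was called. They ranged from Narfl at 2.21 and 2.82 TPM to Hspa9, the mitochondrial chaperone, at 124.71 and 68.39 TPM. The median ratio of this list was 0.998, beside 1.12 for the members and 1.00 for all tested genes.

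**Figure D4:**
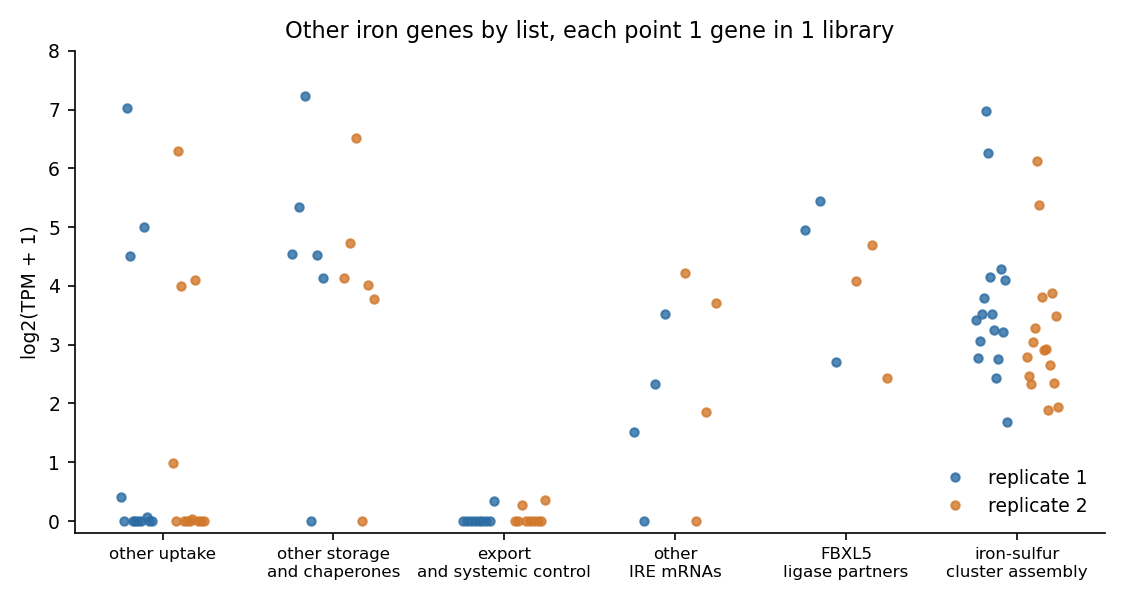
Level of each of the 50 other iron genes as log2(TPM + 1), by list, with 1 point for each gene in each library. All genes of iron-sulfur cluster assembly and all FBXL5 ligase partners lie above 1, and all genes of export and systemic control lie below it.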

How the data were processed

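Total RNA-seq of 2 G1E replicates was analysed from gene and transcript tables. Their columns, per the file headers, are the authors' estimated counts (called expected counts there, without normalisation), TPM, FPKM and the isoform percent, which is a transcript's share of its gene's TPM. The labels name mm10. The annotation release is GENCODE M4 per the deposited file records. No aligner, quantifier or strand setting is given in the sources used here, so reads of overlapping genes may not be separated. The members and lists were chosen with earlier results of these data known.

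Names and sequences came from GENCODE M21 (GRCm38), where 42462 of 43346 genes matched, and model lengths of Fth1, Ireb2 and Fbxl5 differ between the annotations. Because there was 1 group, no group was tested. Libraries were compared by a two-sided exact binomial test on rounded counts against TMM effective library sizes (edgeR 4.0.16, R 4.3.3), for genes whose counts in both libraries summed to at least 10. P-values were adjusted by Benjamini-Hochberg over 11902 genes, with exact 95% Clopper-Pearson intervals. Spike-ins stayed out. A count of 0 allows up to 3 counts (0.0948 and 0.0739 CPM). Intervals and floors cover counting error only, and the spread added by amplifying 1 ng of RNA is not in them. Members were compared with all transcripts by BLAST 2.17.0. Scripts that test many genes were tested on simulated data.

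The named genes were the 10 members, every Slc11a2 and Slc40a1 transcript, other members' transcripts with a mean isoform share of at least 5%, the highest, lowest and called genes of each list, and the 3 ferritin copies with the most counts. Of the listed genes, 2 are not reported here. Transcripts and genes named beyond this were chosen after their values were seen. The alternatives were other scalings (DESeq2 1.42.0 among them), filters, pseudocounts, estimates, a negative binomial test, IRE rules and each library left out in turn.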

Additional observations from a re-analysis of the deposited data

How the results depend on the processing

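No paired analysis was possible because the libraries form 1 group. The call of 0 members and of 869 genes depended on the setting as follows. Spike-in scaling, with spike-in totals of 514 counts in replicate 1 and 10351 in replicate 2, called all 10 members and 11644 genes. Removing the limit on the ratio called 5 and 3854, and total-count scaling called 0 and 1417 (27.95% of them higher in replicate 2, against 69.62%). Requiring at least 100 counts called 0 and 261, and edgeR's negative binomial exact test called 0 and 296, with a common coefficient of variation of 26.3%. DESeq2 size factors, nuclear protein-coding totals and no count filter stayed within 1.5 times.

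Directions reversed only where the scale moved all genes. With total counts (all-gene median log2 ratio -0.52) the log2 ratios were Tfrc -0.32, Tfr2 -0.35, Steap3 -0.36, Slc11a2 -0.20, Ftl1 -0.34, Ireb2 -0.49, Aco1 -0.46 and Fbxl5 -0.46. With spike-ins (all-gene median -4.49) they were Tfrc -4.29, Tfr2 -4.32, Steap3 -4.34, Slc11a2 -4.18, Ftl1 -4.31, Slc40a1 -3.96, Ireb2 -4.47, Aco1 -4.43, Fbxl5 -4.43, Trf -2.05 and Alas2 -1.45. The log2 ratio of Ireb2 to Aco1 was -1.44 with a pseudocount of 0.1 TPM. The share of Slc11a2 with an IRE was 0% by the stated rule, 66.6% with the loop alone, and by added rules 23.5% of TPM, 48.8% of counts and 43.4% over the full-length models. That of Slc40a1 was 81.2% by the posterior mean and 99.0% of counts under either rule. Leaving out either library leaves 1 value per result, which with 2 libraries always lies within 1 SD of their mean and so checks nothing. With 1 ng of RNA and counts under 10 on several models, small isoform shares are limited by depth.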
